A study of Homo sapiens with 4 samples.

Results

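The genes described here carry iron across membranes, carry it in blood, store it and sense it. The list holds 10 genes: TF, TFRC, FTH1, FTL, SLC11A2, SLC40A1, STEAP3, SCARA5, IREB2 and ACO1. The platform's probe annotation named probes for 8 of them, 12 probes in all, among 30112 probes with a single gene symbol that stand for 20045 genes. No probe is named there for FTH1 or IREB2, so neither gene was analysed here. RNA came from A2058, an established human melanoma cell line, and was read on 4 Illumina bead arrays. Parental cells and cancer stem-like cells were each sampled at normal oxygen (normoxia) and at low oxygen (hypoxia), and each of the 4 groups holds 1 array. The stem-like cells had been derived from the parental line by selection with 100 uM of carmustine, a DNA-alkylating drug, for 6 months. All 4 cultures were kept in DMEM with 10% fetal bovine serum, antibiotics and 5% CO2 at 37 degrees. The serum brings bovine transferrin, and no iron salt, chelator or other iron treatment is named in the labels. The labels give neither the oxygen level nor the length of the exposure, and do not say whether the stem-like cells are a single clone.

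As background, most cells take up iron as transferrin, the plasma carrier encoded by TF, through the transferrin receptor encoded by TFRC. In the acidic endosome the reductase encoded by STEAP3 turns the released ferric iron into ferrous iron, and the transporter encoded by SLC11A2, also called DMT1, moves it to the cytosol. SCARA5 encodes a scavenger receptor that takes up ferritin. Spare iron is stored in ferritin shells built from the heavy chain of FTH1 and the light chain of FTL, and leaves through ferroportin, encoded by SLC40A1. The iron regulatory proteins encoded by ACO1 and IREB2 bind hairpins called iron-responsive elements. Binding protects the TFRC transcript and blocks translation of the ferritin and ferroportin transcripts. TF and TFRC are also known targets of the hypoxia-inducible factors. In the body most transferrin is made by the liver.

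With 1 array per group there is no replicate check, no test was made, and every value describes these cultures. The samples are bulk RNA, so fewer cells that express a gene and less RNA per cell cannot be told apart. Levels are background-corrected, quantile-normalized log2 signals, and detection means a deposited detection p-value under 0.01. The lowest level of a detected probe lay between 5.22 and 5.29. Genes are called higher or lower from 2-fold on (1 on the log2 scale), a limit on size alone. Where 1 array of a comparison did not detect a gene, its fold is a bound. Technical error was gauged from genes with several detected probes: the log2 folds of such probes had an SD of 0.20 in parental hypoxia, 0.23 in stem-like hypoxia, and 0.30 and 0.28 between the cell states at normal and low oxygen. That SD leaves out the error between arrays and cultures.

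Between 9991 and 10277 genes were detected on an array. Detected probes had a median raw signal of 295 and 301 in parental cells and 259 and 266 in stem-like cells, so it moved with the cell state. Of 8 melanocyte markers, 7 had a probe, and 6 of these were detected on both parental arrays against 3, MITF, PMEL and SOX10, on both stem-like arrays. Their summed linear level was 12906 and 14197 in parental cells and 1438 and 1136 in stem-like cells. Of 6 epithelial markers with a probe, KRT18 was detected on all 4 arrays and KRT8 on the stem-like arrays. CDH1, EPCAM, KRT5 and KRT14 were not detected on any array. The summed level of the detected markers was 54.0 and 75.1 in parental and 366 and 417 in stem-like cells, so KRT8 and KRT18 moved up with the stem-like state. KRT8 was at least 5.89-fold and 6.86-fold higher there at normal and low oxygen, and KRT18 2.59-fold and 2.06-fold. Of 6 endothelial markers 0 to 1 were detected on an array, and of 7 erythroid markers HBA2 and HBG1 were detected in stem-like hypoxia and none elsewhere. The part of these shifts in the results on iron genes was not tested.

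The carrier gene TF was lowest in parental normoxia, higher in hypoxia in both cell states, and higher in stem-like than in parental cells under both oxygen conditions. SCARA5 was detected only on the stem-like arrays. STEAP3 was higher and SLC11A2 lower in stem-like cells. TFRC, FTL and ACO1 lay within 2-fold in every comparison, and SLC40A1 was detected on none. In counts, 6 members were detected on all 4 arrays, 1 on the stem-like arrays alone and 1 on no array.

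**Figure D1:**
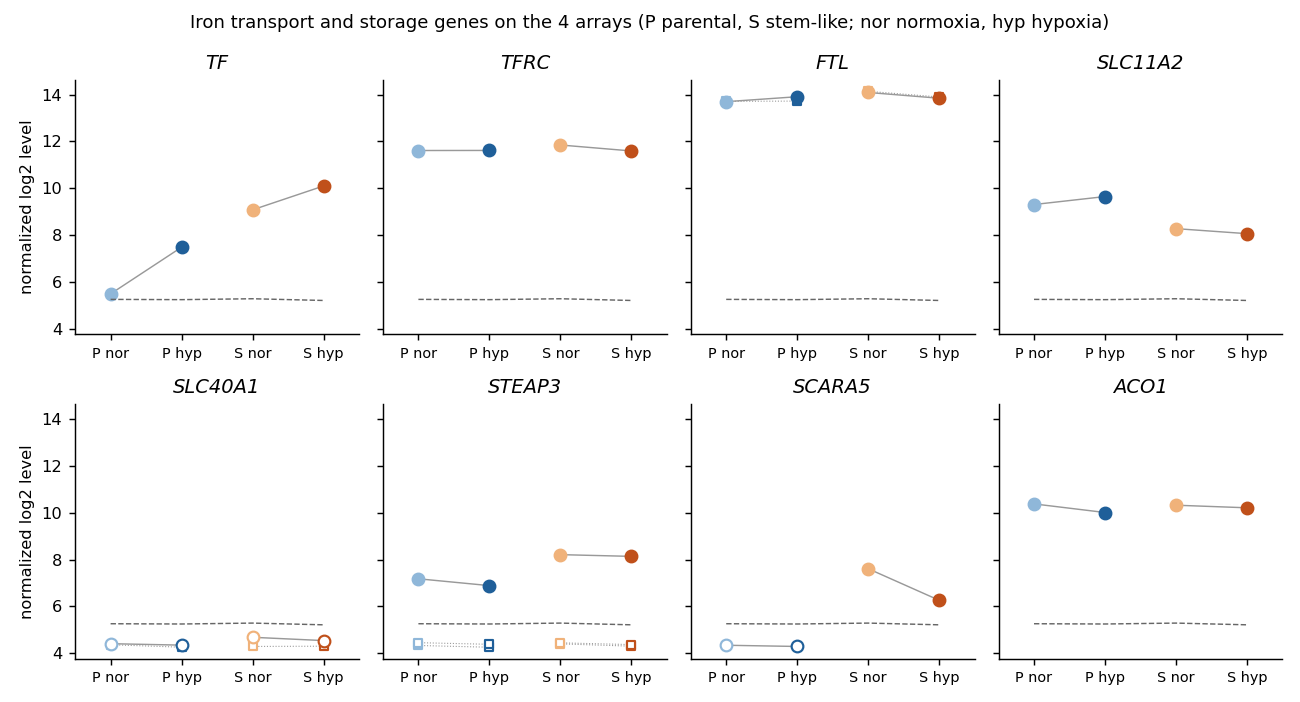
Normalized log2 level (y axis) of each iron gene with a probe on the 4 arrays (x axis, P parental, S stem-like, nor normoxia, hyp hypoxia). Circles are the probe that stands for the gene, small squares its other probes, open symbols undetected values and the dashed line the lowest detected level; TF climbs from 5.50 to 10.10 while TFRC stays between 11.59 and 11.85.

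TF, the gene of the plasma iron carrier (chr3:133661998-133796641 in GRCh38.p14, by RefSeq), gave raw signals of 139.7 and 293 in parental cells at normal and low oxygen, and of 563 and 1110.3 in the stem-like cells. Its normalized levels in the same order were 5.50, 7.49, 9.08 and 10.10. The 4 levels thus run from parental to stem-like cells and, within each state, from normoxia to hypoxia, and the spread around each is unknown. In parental normoxia TF was just above the detection floor, by 0.24 on the log2 scale, with a detection p-value of 0.0039.

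In parental cells TF was 3.97-fold higher in hypoxia, a log2 fold of 1.99. It ranked 5 from the top among 10442 genes detected on either array. In stem-like cells TF was 2.02-fold higher in hypoxia, a log2 fold of 1.02 and rank 48 of 10595. In that comparison the call is lost, just under 2-fold, with uncorrected signals (0.90), an offset of 50 (0.97) or the authors' table (0.91).

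Between cell states the gene lay further apart than between oxygen conditions. TF was 11.99-fold higher in stem-like than in parental normoxia, a log2 fold of 3.58 and rank 52 of 10758 genes. In hypoxia it was 6.11-fold higher, a log2 fold of 2.61 and rank 125 of 11000. TF stayed past 2-fold between the cell states under all 7 alternative settings. The detection settings and the mean of probes among them cannot change its value. The smallest log2 folds of TF were 2.19 in normoxia and 2.12 in hypoxia, both without background correction.

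The size of the TF folds that use a parental array depends on the background step, and the parental normoxia value lies near the floor. Between the cell states the log2 folds of 3.58 in normoxia and 2.61 in hypoxia became 2.19 and 2.12 without background correction. The raw ratios there were 4.03 and 3.78, so the wider gap in normoxia depends largely on this step. Without background correction the hypoxia log2 fold of TF was 0.97 (parental) and 0.90 (stem-like), both short of 2-fold, as was the parental value of 0.98 by the authors' table, and the raw signals gave ratios of 2.10 and 1.97. The difference of the hypoxia folds, stem-like minus parental, was -0.97 after correction, -0.46 with an offset of 50 and -0.07 without correction. Over 9006 genes detected on all 4 arrays, 0.822% had a difference at least as far from 0 as -0.97.

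TF is also a liver gene, so hepatocyte markers were read beside it. Of 8 such markers, all with a probe, ALB was detected on the parental arrays, and ALB and SERPINA1 on the stem-like arrays. Their summed linear level was 61.9 and 79.2 in parental and 154.6 and 170.8 in stem-like cells. APOA1, APOB, TTR, FGB, AHSG and HPX were not detected on any array. The sum rose in the same order as TF, but its members did not run alike. ALB, detected on all 4 arrays, had hypoxia log2 folds of 0.36 (parental) and -0.61 (stem-like), and stem-like cells differed from parental cells by 0.35 in normoxia and -0.61 in hypoxia, where TF was higher. SERPINA1 stood at 0.65 in stem-like hypoxia and was at least 1.97-fold and at least 3.12-fold higher in the stem-like state at normal and low oxygen. The part of these markers in the TF values was not tested.

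By the distance between centred level profiles over the 4 arrays, the genes most like TF among 9005 others were AK4, a mitochondrial adenylate kinase gene, at a distance of 0.36, NDRG1, a stress-responsive gene, at 0.42, and IGFBP3, a gene of a growth factor binding protein, at 0.63. AK4 had levels of 6.68, 8.66, 9.90 and 10.92 in the order used above. NDRG1 had the larger fall in its hypoxia fold between the states, with log2 folds of 2.37 and 0.78, and IGFBP3 had 1.98 and 1.82.

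RefSeq lists 2 starts for TF on chromosome 3 of GRCh38.p14, and which of them A2058 cells use was not measured. Their upstream sequences are shown because TF had the widest range of levels in the list, with that of TFRC as the gene of its receptor and that of FTL as the storage gene. Each runs 250 bases up to the base before the start, 5′ to 3′ on the gene's strand. Capitals mark ACGTG or GCGTG, the core of the hypoxia response element, found on either strand; a match on the other strand reads CACGT or CACGC. The windows are chr3:133661748-133661997 (+) and chr3:133746143-133746392 (+) for TF, chr3:196082091-196082340 (-) for TFRC and chr19:48965059-48965308 (+) for FTL.
TF, upstream start: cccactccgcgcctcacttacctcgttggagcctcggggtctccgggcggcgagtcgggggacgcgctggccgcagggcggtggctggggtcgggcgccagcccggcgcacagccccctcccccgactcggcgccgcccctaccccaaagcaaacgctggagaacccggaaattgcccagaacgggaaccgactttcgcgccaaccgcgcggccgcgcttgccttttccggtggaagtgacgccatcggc
TF, downstream start: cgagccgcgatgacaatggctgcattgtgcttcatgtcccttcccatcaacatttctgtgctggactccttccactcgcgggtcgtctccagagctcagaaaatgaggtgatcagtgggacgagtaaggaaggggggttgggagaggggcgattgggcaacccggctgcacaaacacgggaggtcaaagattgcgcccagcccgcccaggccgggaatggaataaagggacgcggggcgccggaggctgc
TFRC: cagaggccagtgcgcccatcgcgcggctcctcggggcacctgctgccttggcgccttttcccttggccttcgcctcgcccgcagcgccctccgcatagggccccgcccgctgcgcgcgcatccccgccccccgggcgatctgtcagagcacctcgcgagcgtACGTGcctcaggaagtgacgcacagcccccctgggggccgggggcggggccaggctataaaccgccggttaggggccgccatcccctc
FTL: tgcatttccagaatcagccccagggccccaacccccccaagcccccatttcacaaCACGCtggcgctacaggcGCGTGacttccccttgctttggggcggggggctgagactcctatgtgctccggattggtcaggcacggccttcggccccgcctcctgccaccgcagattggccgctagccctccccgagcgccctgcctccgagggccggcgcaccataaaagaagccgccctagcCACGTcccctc

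Neither TF window holds ACGTG or GCGTG. That says only that these letters are not in these windows. The TFRC window holds ACGTG once, from -88 to -84 relative to the start. The FTL window holds ACGTG once, from -11 to -7 on the other strand, and GCGTG 2 times, from -177 to -173 and, on the other strand, from -195 to -191. None of these matches overlaps another. Of 35116 RefSeq promoter windows of the same length, 18.5% hold ACGTG and 32.2% hold GCGTG on either strand. A search for TGACNNNGC, the core of the antioxidant response element, found it in none of the members' windows searched and in 10.9% of all windows. In all, 13 windows of 8 of the 10 members were searched. No window of FTH1 or SCARA5 was searched, so nothing is said here about their motifs. Among them SLC11A2 has 1 start whose window holds GCGTG once and 1 where it occurs 3 times, ACO1 and IREB2 each hold GCGTG once in a window, and the STEAP3 and SLC40A1 windows hold none of the motifs.

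TFRC, the gene of the receptor that takes up transferrin (chr3:196049284-196082090), had levels of 11.61, 11.62, 11.85 and 11.59 in parental normoxia, parental hypoxia, stem-like normoxia and stem-like hypoxia. Its raw signals were 3489, 3578, 3386 and 2918. These levels span 0.25 on the log2 scale, against 4.60 for the levels of TF, the gene of its ligand. The log2 fold in hypoxia was 0.00 (parental) and -0.25 (stem-like), and 98.6% of genes in the first comparison lay at least as far from 0. Stem-like cells differed from parental cells by 0.24 in normoxia and -0.02 in hypoxia.

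STEAP3, the gene of the endosomal ferric reductase (chr2:119223834-119265652), has 3 probes and only 1 of them was detected. That probe had levels of 7.18, 6.89, 8.21 and 8.14, and raw signals of 248, 226, 350.1 and 362. Both stem-like arrays were above both parental arrays. The other probes were undetected on all 4 arrays, with raw signals from 95.01 to 106.9, and 1 of these is assigned to the same transcript record as the detected probe. STEAP3 was 2.04-fold higher in the stem-like state at normal oxygen and 2.37-fold higher at low oxygen, log2 folds of 1.03 and 1.25. The normoxia value sits on the 2-fold line and fell below it with uncorrected signals or the authors' table (0.71 each), an offset of 50 (0.88) or median scaling (0.80). The hypoxia value fell below it at 0.82 with uncorrected signals and the authors' values alike. The hypoxia log2 folds of STEAP3 were -0.29 (parental) and -0.07 (stem-like).

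SLC11A2, the gene of the ferrous iron transporter DMT1 (chr12:50952263-51028886), went the other way. Its levels were 9.31, 9.65, 8.28 and 8.07, and its raw signals 787, 973, 363 and 350.2. Both stem-like arrays were below both parental arrays. SLC11A2 was 2.04-fold lower in stem-like normoxia, a log2 fold of -1.03, and 2.99-fold lower in stem-like hypoxia, a log2 fold of -1.58. The first value was -0.85, short of 2-fold, by uncorrected signals and by the authors' table, and -0.95 with an offset of 50. The second stayed past 2-fold under all 7 alternatives, though the detection settings and the mean of probes cannot change it. In hypoxia its log2 fold was 0.34 in parental and -0.21 in stem-like cells. The gene rests on 1 probe, and which of its transcripts that probe reads was not examined here.

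STEAP3 and SLC11A2 act in the same endosome and ran opposite ways between the cell states. Folds of this size were common there: 11.9% of genes in normoxia and 8.75% in hypoxia lay at least as far from 0 as STEAP3. For SLC11A2 the shares were 12% and 5.61%. For STEAP3 the closest profiles were those of SIVA1, an apoptosis gene, at a distance of 0.044, ETFB, a mitochondrial electron carrier gene, at 0.045, and SLC35G2 at 0.091. For SLC11A2 they were those of CTNNB1, the gene of beta-catenin, at 0.088, PIK3CD, a lipid kinase gene, at 0.091, and BLACAT1 at 0.104.

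SCARA5, the gene of a ferritin receptor, had raw signals of 99.95 in parental normoxia and 98.7 in parental hypoxia, with detection p-values of 0.89 and 0.98, so it was not detected there. In stem-like cells its raw signals were 262 in normoxia and 168 in hypoxia, and its levels 7.61 and 6.26. SCARA5 was at least 5.09-fold higher in stem-like than in parental normoxia and at least 2.02-fold higher in hypoxia. The normoxia bound, a log2 fold of 2.35, fell to 1.13 by uncorrected signals and by the authors' table and 1.66 with an offset of 50, and stayed past 2-fold under all 7 alternatives. The hypoxia bound, a log2 fold of 1.01, fell to 0.37 by uncorrected signals or the authors' table, 0.62 with an offset of 50 and 0.98 with median scaling.

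Within stem-like cells SCARA5 was 2.54-fold lower in hypoxia, a log2 fold of -1.35, and ranked 6 from the bottom among 10595 genes. This was opposite to TF in the same pair of arrays. The fall was -1.05 with an offset of 50, and -0.76 by uncorrected signals or the authors' values. SCARA5 rests on a single probe. Of 8 macrophage and leukocyte markers, CD68 was detected on all 4 arrays, CD14 on 3 and LYZ on the 2 stem-like arrays. Their summed level was 715 and 703 in parental and 1045 and 1079 in stem-like cells. CD68 differed between the states by log2 folds of only 0.12 and 0.06 at normal and low oxygen. CD14 was 4.95-fold and at least 7.26-fold higher in the stem-like state, and LYZ at least 2.32-fold and 1.79-fold. PTPRC, CD163, CD3E, MS4A1 and ITGAM were not detected on any array. Of 8 fibroblast markers, 2 to 3 were detected on an array, with a summed level of 748 and 889 in parental and 330.5 and 264 in stem-like cells. LUM was 3.14-fold and 4.80-fold lower in the stem-like state at normal and low oxygen, and DCN at least 1.82-fold and 2.28-fold lower. FAP ran the other way, with SCARA5: it was undetected in parental cells and at least 1.87-fold and 2.53-fold higher in the stem-like state. The part of these markers in the SCARA5 values was not tested.

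FTL, the gene of the ferritin light chain (chr19:48965309-48966879), had raw signals from 14173 to 17630 over its 2 probes, on arrays whose brightest probe read 21362 to 23658. Whether signals that bright were compressed was not tested. By the probe that stands for the gene, levels were 13.70, 13.91, 14.09 and 13.84. By the other probe they were 13.71, 13.72, 14.14 and 13.90. Stem-like normoxia was highest by both. The hypoxia log2 fold was 0.21 by the first probe and 0.01 by the second in parental cells, and -0.25 and -0.24 in stem-like cells. Stem-like cells differed from parental cells in normoxia by 0.39 and 0.43. In hypoxia the probes gave -0.06 and 0.18, so the sign there depends on the probe.

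The ferritin light chain is controlled mainly at translation, which an array of messenger RNA does not measure. The start of its iron-responsive element lies in the 5′ untranslated stretch that the RefSeq window covers, at chr19:48965331-48965358 (+), and is shown because it is the site through which the proteins of ACO1 and IREB2 act on this transcript. Capitals mark the loop motif CAGTGN, which was searched on the transcript's strand in the 50 bases after each start.
FTL, loop of the iron-responsive element: ctgtctcttgcttcaaCAGTGTttggac

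Among the 8 members whose windows were searched, FTL was the only one whose stretch after the start holds this motif, from base 39 to base 44. Of all 35116 windows, 6.36% hold it, and most elements lie outside such a short window.

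The heavy chain gene FTH1 had no named probe, but a probe is named for FTH1P3, a processed copy of it. The copy's sequence is close to that of FTH1, so which of the genes this probe measured is uncertain. Its levels were 10.43, 10.61, 9.79 and 9.24. Its hypoxia log2 folds were 0.18 (parental) and -0.55 (stem-like). Stem-like cells stood at -0.64 against parental cells in normoxia and were lower, at -1.37, in hypoxia. Of 11 ferritin copies listed, 3 had a probe, and those of FTLP10, a light chain copy, and FTHL17, a heavy chain relative, were not detected on any array.

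ACO1, the gene of the iron regulatory protein that also acts as cytosolic aconitase (chr9:32384643-32454769), had levels of 10.37, 10.01, 10.32 and 10.21, and raw signals of 1548, 1231, 1209 and 1191. Parental hypoxia was lowest. Its hypoxia log2 folds were -0.37 (parental) and -0.11 (stem-like), and stem-like cells differed from parental cells by -0.06 in normoxia and 0.20 in hypoxia. With median scaling the differences between the cell states were -0.33 and 0.01. In parental hypoxia 12.4% of genes lay at least as far from 0 as ACO1. SLC40A1, the gene of the iron exporter ferroportin (chr2:189560590-189580786), had raw signals from 94.7 to 114.2 over 2 probes and 4 arrays and was detected on none, with detection p-values of at least 0.194. A level below the detection floor does not show that the transcript is absent.

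**Figure D2:**
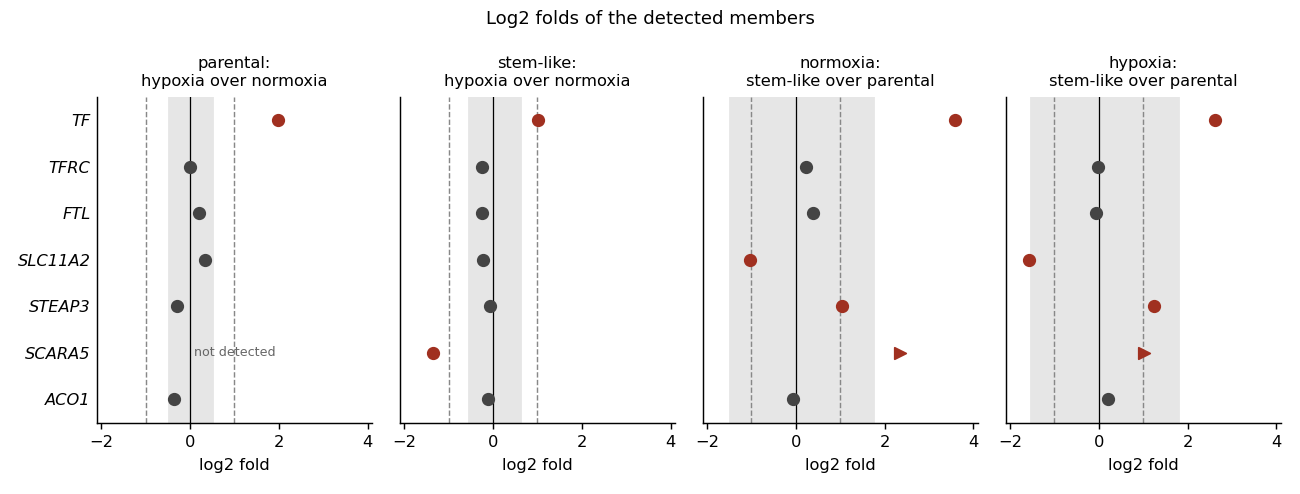
Log2 fold (x axis) of the iron genes detected in each of the 4 pairwise comparisons. Circles are measured folds, triangles bounds, red symbols lie past 2-fold (dashed lines), and grey bands hold the central 95% of all genes measured; TF lies outside the band in all 4 panels.

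Counted over the list, 1 of 6 measured members was higher in parental hypoxia and 0 lower, where 0.383% of all genes measured were higher and 0.0766% lower (0.46% in either direction). In stem-like hypoxia 1 of 7 was higher and 1 lower, against 0.491% and 0.189% of genes (0.68% in either direction). Between the cell states the stem-like normoxia array had 3 of 7 members higher and 1 lower, against 6.67% and 5.87% of genes (12.5%). In stem-like against parental hypoxia the members' counts were again 3 and 1 of 7, against 7.24% and 5.97% of genes (13.2%). No member passed a difference of 1 between the hypoxia folds, against 0.666% of genes. The medians of the members were 0.11, -0.21, 0.39, 0.20 and -0.36 in these 5 comparisons, and those of all genes 0.00, 0.00, -0.01, 0.00 and 0.00. The pairwise comparisons share arrays, so their values are not independent. The members were chosen with earlier results of these data known, and SCARA5 is counted only through its detection on the stem-like arrays. The counts and medians therefore describe this list and do not test it against other genes.

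Median scaling in place of quantile normalization moved the median of all genes between the cell states to -0.21 in normoxia and -0.11 in hypoxia. Of all genes past 2-fold, 546 were then higher and 964 lower in the stem-like state at normal oxygen, in place of 718 and 632, and 661 and 821 at low oxygen, in place of 796 and 657. In stem-like hypoxia against normoxia the split was 64 and 7 in place of 52 and 20, and for the difference of hypoxia folds 46 and 19 in place of 29 and 31. Relative to the shifted medians the log2 folds of the members were 3.62 and 2.54 for TF, 1.01 and 1.23 for STEAP3, -1.10 and -1.60 for SLC11A2, and at least 2.40 and 1.10 for SCARA5.

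**Figure D3:**
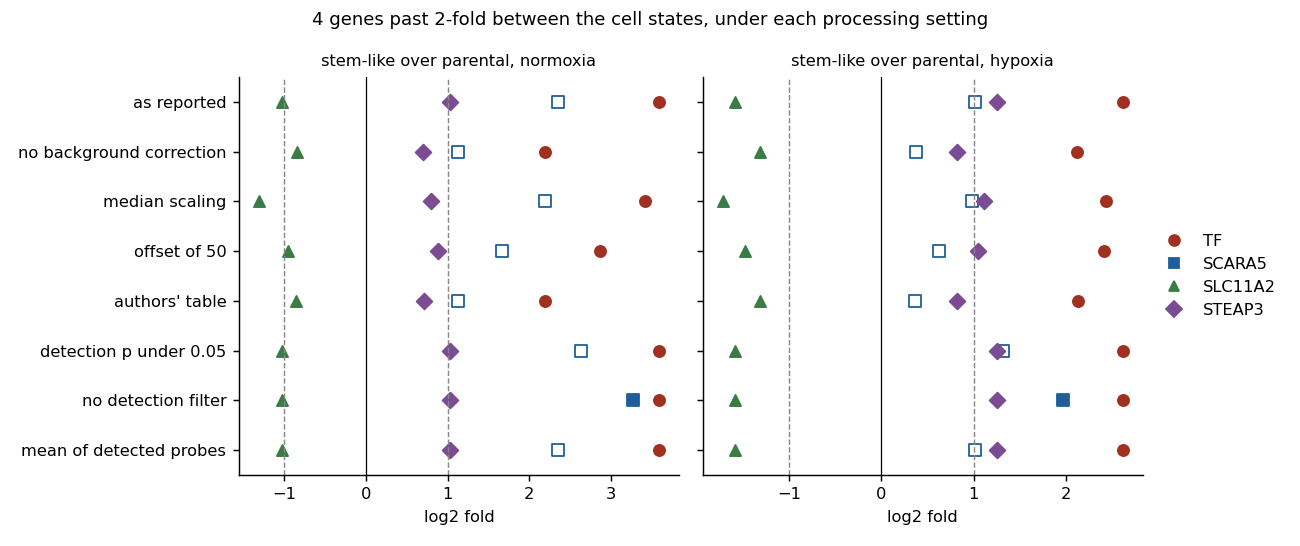
Log2 fold (x axis) of TF, SCARA5, SLC11A2 and STEAP3 between the cell states in normoxia and in hypoxia under the reported and 7 alternative settings (rows); open squares are bounds and dashed lines mark 2-fold. TF stays at 2.12 or more in every row, while STEAP3 crosses the line.

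The hypoxia folds of both cell states can be set side by side for 6 members. Among these members, detected on all 4 arrays, log2 folds other than that of TF ran from -0.37 to 0.34 in parental cells and from -0.25 to -0.07 in stem-like cells. The difference of the folds, stem-like minus parental, was -0.26 for TFRC, -0.46 for FTL, -0.55 for SLC11A2, 0.22 for STEAP3 and 0.26 for ACO1, beside a between-probe SD of 0.28 for such differences. Differences of the size of TFRC, STEAP3 and ACO1 are therefore within the error between probes of 1 gene. Those of FTL and SLC11A2 exceeded this SD, but 12.4% and 7.15% of 9006 genes lay at least as far from 0. The second FTL probe had hypoxia log2 folds of 0.01 (parental) and -0.24 (stem-like). The SD leaves out the error between arrays and cultures.

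**Figure D4:**
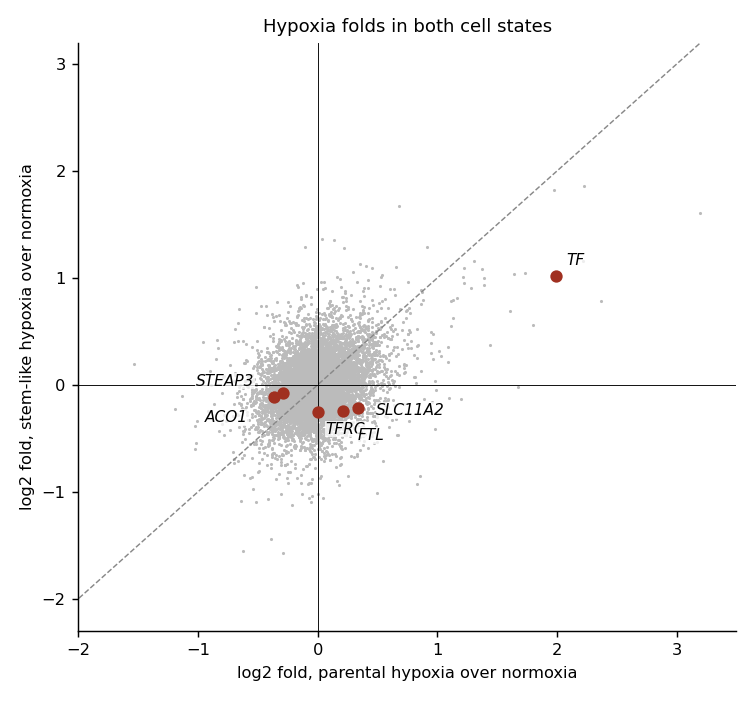
Hypoxia log2 fold in parental cells (x axis) and in stem-like cells (y axis) for 9006 genes detected on all 4 arrays (grey) and 6 iron genes (red); the dashed line marks equal folds. TF, at 1.99 and 1.02, lies off the cloud, and the other iron genes lie inside it.

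Of 17 genes of iron uptake and reduction, all with a probe, 8 to 10 were measured in a comparison. In parental hypoxia 1 of 8 was higher, where 0.383% of all genes were: CUBN, the gene of an endocytic receptor of kidney tubules, at a log2 fold of 1.01 against 0.32 in stem-like hypoxia. The CUBN level of 5.55 in parental normoxia lay near the lowest detected level there, 5.26, and its fold sits on the 2-fold line. Its value under the alternative settings is not given here. In stem-like against parental hypoxia 1 of 10 passed 2-fold, near the 13.2% of all genes: MELTF, the gene of the transferrin homologue melanotransferrin of melanoma cells, at 1.22, against 0.89 in normoxia. STEAP1, a relative of STEAP3, stood at -0.73 at normal and -0.56 at low oxygen against parental cells. HFE was detected on both parental arrays and on neither stem-like array. It was at least 1.52-fold lower in stem-like cells in normoxia and at least 1.94-fold lower in hypoxia, bounds that leave room for more than 2-fold. STEAP2, STEAP4, LTF and LRP2 were not detected on any array.

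Of 14 genes of iron and heme export and its hormonal control, 6 were measured in each pairwise comparison, and 0 of 6 passed 2-fold in each, a number too small to read against shares of 0.46% to 13.2% of all genes. BMP6, the gene of a signal that raises hepcidin in the liver, was at least 1.91-fold higher in stem-like hypoxia than in stem-like normoxia, a bound that leaves room for more than 2-fold. The ferroxidase genes CP and HEPH, which work with ferroportin, and HAMP, the gene of the hormone hepcidin, were like SLC40A1 not detected on any array. FLVCR1, a heme exporter gene by older accounts, stood at -0.61 at normal and -0.26 at low oxygen against parental cells.

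Of 8 measured genes of ferritin turnover and iron chaperones, 1 passed 2-fold between the cell states, near the share of all genes (12.5% in normoxia and 13.2% in hypoxia). This was PCBP4, a relative of the iron chaperone genes, higher in stem-like cells with log2 folds of 1.32 in normoxia and 1.23 in hypoxia. HERC2, the gene of a ubiquitin ligase, stood at -0.89 and -0.71. Of 9 measured genes that sense iron or carry iron-responsive elements, 1 was higher and 1 lower in stem-like normoxia and 1 higher in stem-like hypoxia. Of all genes 12.5% and 13.2% passed 2-fold in these comparisons. EPAS1, the gene of a hypoxia-inducible factor with such an element, was higher in stem-like cells at 1.80 in normoxia and 1.93 in hypoxia. CDC42BPA, whose transcript carries an element, was lower in normoxia at -1.29 and stood at -0.79 in hypoxia. HIF1A, the gene of another such factor, stood at 0.75 and 0.84. In hypoxia FBXL5, the gene of the ligase that removes the protein of IREB2 when iron is plentiful, stood at 0.21 in parental and 0.27 in stem-like cells. In hypoxia against normoxia none of these 9 passed 2-fold in either cell state, where only 0.46% (parental) and 0.68% (stem-like) of all genes did.

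Of 26 genes of mitochondrial iron and iron-sulfur clusters with a probe, 22 were measured. None passed 2-fold in hypoxia, where only 0.46% (parental) and 0.68% (stem-like) of all genes did. These shares are too small to read a list of this size against. The largest hypoxia fold was that of ISCU, the scaffold gene of cluster assembly, at -0.66 in stem-like and -0.38 in parental cells. Between the cell states 1 of 22 was higher and 2 lower in normoxia, and 2 were higher and 1 lower in hypoxia. These counts are near the 12.5% and 13.2% of all genes past 2-fold. SLC25A37, the gene of the mitochondrial importer mitoferrin, was higher in stem-like cells at 1.09 in normoxia and 1.25 in hypoxia. ISCA2, a cluster assembly gene, was lower at -1.06 and -1.13. CIAO3, a gene of cytosolic cluster assembly, was 2.0005-fold lower in normoxia and stood at a log2 fold of -0.86 in hypoxia, and NUBP1, of the same pathway, stood at 0.83 and was higher at 1.03.

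**Figure D5:**
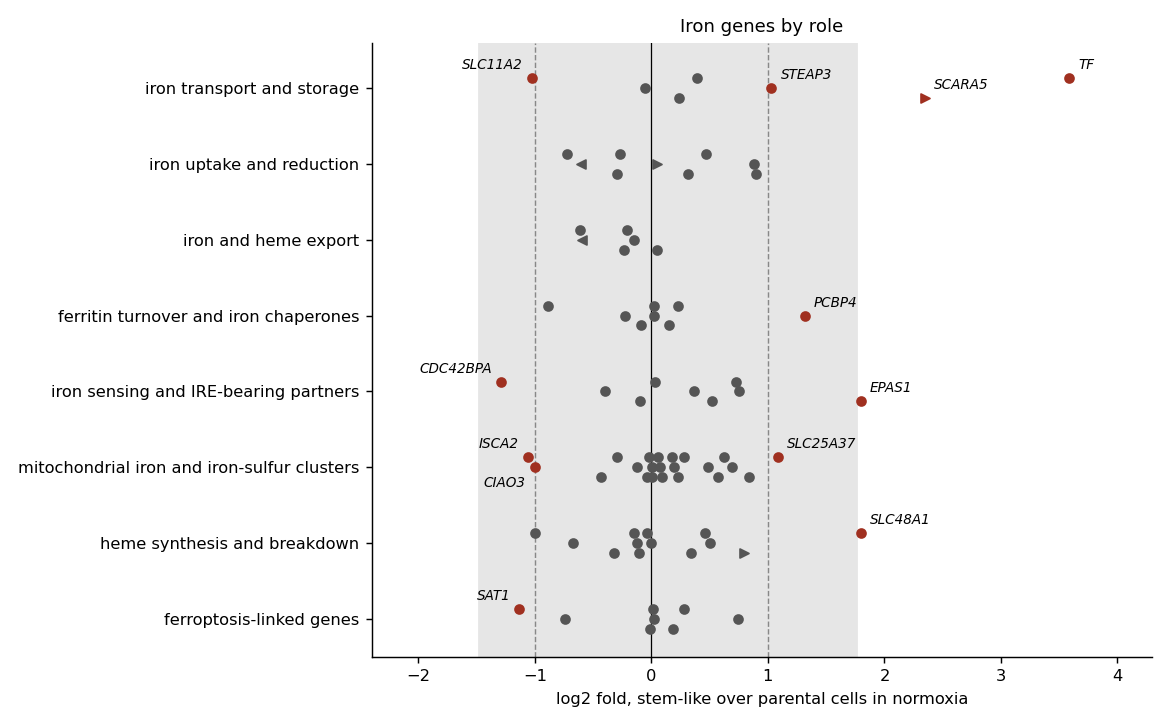
Log2 fold of stem-like over parental cells in normoxia (x axis) for the iron transport and storage genes and 7 lists of related genes (rows). Circles are measured, triangles bounds, red and named genes lie past 2-fold (dashed lines) and the grey band holds the central 95% of all genes; TF at 3.58, SCARA5 at 2.35 or more, and SLC48A1 and EPAS1 at 1.80 each lie above it.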

How the data were processed

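Groups were taken from the sample titles. The deposited non-normalized table gives a mean bead intensity per probe on a linear scale and a detection p-value, per the file headers. The authors' own table gives intensity values with equal quantiles on the 4 arrays. Neither labels nor headers name the scanner software or the normalization.

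In the first table the printed probe identifiers do not sit beside their own values: 47315 identifiers stand beside 47323 lines, and 98.0% were 1 to 8 lines off. Lines were matched to the authors' table by within-array rank along 1 ordered path, and 8 lines stayed unmatched and unused. Spearman rho between 2 probes of a gene, over 6691 genes on the first array, rose from 0.022 to 0.482.

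Probes with 1 symbol in the platform annotation were used (30112, with 8 of several symbols and 17195 unnamed). Signals were processed with limma 3.58.1 in R 4.3.3 (normexp from detection p-values, offset 16, quantile, log2). The probe with the highest mean stands for a gene. Undetected values were raised to the lowest detected level of their array. Alternatives were no background correction, an offset of 50, median scaling, the authors' values, the mean of a gene's probes, a detection limit of 0.05 and no detection filter. All folds were computed on the whole table. Folds of dim genes shrink toward 1 because of the offset.

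Named genes are all members, the 3 profiles nearest to each member that is past 2-fold in a comparison and detected on all arrays, and up to 3 genes of each list per comparison. Of 176 list entries in 15 lists, 157 had a probe. The members and lists were chosen with earlier results of these data known. Alignment and folds were tested on simulated data. Sequences and coordinates are from RefSeq tables of GRCh38.p14.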

Additional observations from a re-analysis of the deposited data

Results flagged for a closer look

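The hypoxia folds in parental and in stem-like cells lay on opposite sides of 0 for some iron genes. With 1 array per group none of these differences was tested, and of 71 genes of the related lists detected on all 4 arrays 22 had hypoxia folds of opposite sign. The share among all 9006 genes detected on all 4 arrays is not given here, so opposite signs alone do not set these genes apart. FTL stood at 0.21 in parental and -0.25 in stem-like cells, a difference of -0.46, and its second probe gave 0.01 and -0.24. SLC11A2 stood at 0.34 and -0.21, a difference of -0.55. TFRC is included by its arithmetic sign alone: its parental fold, 0.00, cannot be told from 0, and the difference of -0.26 is under the between-probe SD of 0.28 for such differences. Among genes of the lists, FTH1P3 differed by -0.73, FECH by -0.69 and ALAD by -0.49. HMOX1, the gene of the enzyme that frees iron from heme, stood at 0.25 and -0.85, a difference of -1.10, and was the only list gene of opposite signs whose difference passed 1. It was dim, with levels of 6.07 and 6.32 in parental and 6.58 and 5.73 in stem-like cells, where the lowest detected levels were 5.22 to 5.29. Its difference under the alternative settings is not given here.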

How the results depend on the processing

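No paired analysis was possible because each group holds 1 array. Leaving out an array was not possible either. The cause of each move below was not tested beyond what a setting does by construction. Of 231 member values recomputed under the 7 alternatives, 229 kept their sign, and no value past 2-fold reversed. These counts include values that could not move. For a gene with 1 detected probe, found on all 4 arrays, the detection settings and the mean of probes return the same value. The authors' values also lie close to the uncorrected ones, so the alternatives are not independent checks. The exceptions were FTL between the cell states in hypoxia, at 0.06 with the mean of its probes, and STEAP3 in stem-like hypoxia, at 0.03 with median scaling. The number of members past 2-fold in parental hypoxia was 0 by uncorrected signals and 0 by the authors' table, in place of 1. In stem-like hypoxia it was 0, 0 and, with an offset of 50, 1, in place of 2. Between the cell states it was 2 by uncorrected signals and 2 by the authors' table, in place of 4, in normoxia and in hypoxia, and 2 with an offset of 50 in normoxia. For the difference of hypoxia folds it was 1, SCARA5, with no detection filter, in place of 0.

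Counts of all genes past 2-fold fell by uncorrected signals, by the authors' table and by an offset of 50. In that order they were 20, 21 and 28 in place of 48 for parental hypoxia, 14, 13 and 30 in place of 72 for stem-like hypoxia, and 655, 659 and 966 in place of 1453 for the cell states in hypoxia. In normoxia they were 596 without correction and 603 with the authors' table in place of 1350. For the difference of hypoxia folds they were 6, 8 and 18 in place of 60, and 214 with no detection filter, where more genes are counted. The offset and the uncorrected background add a constant to both signals, which draws ratios of dim genes toward 1. Signal over background limits TF in parental normoxia, SCARA5 and SLC40A1.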

Other observations

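Genes of heme synthesis and breakdown had hypoxia medians on opposite sides of 0 in the cell states. None passed 2-fold in hypoxia, where only 0.46% (parental) and 0.68% (stem-like) of all genes did. In parental hypoxia 9 of 12 measured genes had a log2 fold above 0, with a median of 0.14, and in stem-like hypoxia 1 of 13, with a median of -0.20, where the medians of all genes were 0.00. HMOX2, counted among the 13, was detected in stem-like normoxia alone, so its fold could not come out above 0. It was at least 1.79-fold lower in stem-like hypoxia, a bound that leaves room for more than 2-fold. FECH, the gene of ferrochelatase, which inserts iron into heme, stood at 0.17 (parental) and -0.52 (stem-like), and ALAD, of an early step, at 0.30 and -0.20. ALAS1, the gene of the first step, stood at -0.36 and -0.41. Between the cell states 1 of 13 was higher in normoxia, and 1 of 12 was higher and 1 lower in hypoxia. Of all genes 12.5% and 13.2% passed 2-fold there. SLC48A1, the gene of a lysosomal heme transporter, was higher in stem-like cells at 1.80 in normoxia and 1.35 in hypoxia. BLVRA, the gene of a biliverdin reductase, stood at -0.99 in normoxia and was lower at -1.21 in hypoxia.

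Of 8 measured genes linked to ferroptosis, a cell death that depends on iron, none passed 2-fold in hypoxia. Only 0.46% (parental) and 0.68% (stem-like) of all genes did. Between the cell states 1 of 8 passed 2-fold in normoxia and in hypoxia, near the 12.5% and 13.2% of all genes. SAT1, a polyamine catabolism gene, was lower in stem-like cells at -1.13 in normoxia and -1.02 in hypoxia. SLC7A11, the gene of the cystine importer, stood at 0.74 and 0.61, and GPX4, the gene of the peroxidase that removes lipid peroxides, at -0.74 and -0.67.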
